A study of Rattus norvegicus with 27 samples.

Results

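The 8 genes followed here mark successive steps of the oligodendrocyte lineage: Pdgfra, Cspg4, Olig1, Olig2, Sox10, Nkx2-2, Gpr17 and Bcas1. They were measured in the cerebellar interpositus nucleus of adult rats. They were chosen by name from the 17321 genes of the count table, and all 8 of 8 passed the filter on low counts that left 12107 genes. Messenger RNA had been sequenced from punches of 27 Long-Evans rats aged 70 days, in 4 groups. Normally reared rats (no treatment, NT) comprised 5 females and 7 males, and rats whose dams were given limited bedding (LB) from day 2 to day 9 after birth comprised 7 females and 8 males. Pups of all groups had been cross-fostered and were later housed with cage mates of the same sex and treatment, no allele or transgene was involved, and animals are named here by the number in their sample title. The labels do not say which animals shared a litter or a cage, so p-values measure the spread between these animals and treat them as independent. The question was whether the genes of precursor cells followed those of the whole lineage over animals and groups.

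Oligodendrocytes arise from precursor cells that persist in the adult brain. Precursors carry PDGFRA, the receptor for the growth factor PDGF-A, and the proteoglycan NG2, which is encoded by Cspg4. The transcription factors OLIG1, OLIG2 and SOX10 are made throughout the lineage, from precursor to myelinating cell, and NKX2-2 acts around the onset of differentiation. GPR17, a G protein-coupled receptor, marks committed precursors for a short time, and BCAS1 marks cells that are starting to myelinate and remains in myelin. Pdgfra is also made by fibroblasts of the meninges and Cspg4 by pericytes, so neither is private to precursors in a tissue punch.

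On the rn6 genome used by the authors, Olig1 (chr11:31428377-31430519, 1 exon) and Olig2 (chr11:31389514-31392890, 2 exons) were nearest neighbours, 35487 bases apart on the plus strand. The others lay apart: Pdgfra at chr14:35527926-35581031 with 23 exons, Cspg4 at chr8:61532465-61567510, Sox10 at chr7:120393254-120403523, Nkx2-2 at chr3:141408798-141411170, Gpr17 at chr18:24734330-24735349 and Bcas1 at chr3:167957994-168033457. None of the 8 shared exon bases with another gene of the table (0 overlaps). RefSeq promoter windows (250 bases before to 50 after the start, GRCr8 build) were matched for 5 of the 8 members. Those of Olig2 and Pdgfra are shown, 1 a lineage-wide factor and 1 the defining precursor receptor. Capitals mark the motif matches found. The windows are chr11:43961335-43961634 on the plus strand for Olig2 and chr14:33408467-33408766 on the minus strand for Pdgfra, 5′ to 3′:
Olig2: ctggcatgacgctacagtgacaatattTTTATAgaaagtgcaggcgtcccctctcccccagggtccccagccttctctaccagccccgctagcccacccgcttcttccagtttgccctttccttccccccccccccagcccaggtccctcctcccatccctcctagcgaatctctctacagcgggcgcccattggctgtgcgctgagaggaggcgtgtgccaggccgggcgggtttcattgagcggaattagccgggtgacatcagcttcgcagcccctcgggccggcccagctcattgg
Pdgfra: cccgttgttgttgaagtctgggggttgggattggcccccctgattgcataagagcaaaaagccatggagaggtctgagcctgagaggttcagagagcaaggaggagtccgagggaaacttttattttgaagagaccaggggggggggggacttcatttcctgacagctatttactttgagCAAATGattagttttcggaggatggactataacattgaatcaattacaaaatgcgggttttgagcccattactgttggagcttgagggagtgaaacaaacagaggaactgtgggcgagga

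The motifs searched on both strands were ACAAAG and ACAATG (SOX), CAGATG (an E-box, which is 1 form of CANNTG), CANNTG (any E-box) and TATAAA. The Olig2 window held TATAAA on the opposite strand from position 28, and the Pdgfra window held 1 CANNTG match from position 181, counted from the 5′ end. Neither held a SOX motif or CAGATG, nor did the windows of Cspg4, Nkx2-2 and Gpr17. Over 33469 promoter windows of the same length, ACAAAG was found in 18.8%, ACAATG in 13.2%, CAGATG in 16.6%, CANNTG in 72.1% and TATAAA in 14.2%. The GC content of the Olig2 window was 63.3% and that of the Pdgfra window 48%, against a median of 51.7%. These matches describe letters in a window and nothing about binding.

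All members were detected in every animal, from 12 counts of Gpr17 in 1 LB female to 26170 counts of Bcas1 in 1 NT male. Levels between genes were compared as CPM (counts scaled to a common library size) per kilobase of exon. On that scale the mean level over the 27 animals was 235 ± 123 (SD) for Bcas1, 43.7 ± 19.4 for Olig1, 18.8 ± 9.87 for Sox10, 11.8 ± 5.41 for Olig2, 6.32 ± 2.39 for Nkx2-2, 5.02 ± 1.73 for Pdgfra, 3.898 ± 2.18 for Gpr17 and 2.43 ± 0.737 for Cspg4. Bcas1 stood at percentile 96.8 of all tested genes and Cspg4 at percentile 19.5. The precursor genes were therefore among the lower members, and from Nkx2-2 down to Cspg4 adjacent means differed by less than 1 SD of the more variable gene of the pair. Total counts ranged from 11836684 to 24169170 per animal (median 16034036), at which 3 counts, taken as the floor of detection, correspond to 0.125 to 0.260 CPM. Eif2s3y, a Y-linked gene, had 0 to 3 counts in every animal labelled female and at least 516 counts in every animal labelled male.

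The comparison of NT males with NT females asked for a baseline sex difference. Olig1, Olig2, Sox10, Cspg4 and Bcas1 were higher in NT males, between 1.56-fold (Cspg4) and 2.72-fold (Bcas1), so that 5 of 8 members passed the test against 10.1% of all tested genes in that direction, 5.08% in the other and 15.2% in either. Pdgfra, the receptor that defines precursors, Gpr17 and Nkx2-2 did not pass. All 8 fitted differences were above 0, with a median of 0.81 against 0.03 over all tested genes. The members vary together, so these 8 signs are not independent. In these bulk samples fewer cells of a type and less RNA per cell cannot be told apart. Olig2 and Bcas1 passed in all 27 fits that left out 1 animal each, Olig1 in 22, Cspg4 in 19 and Sox10 in 9. The count of members was 2 without NT female 1011, 1013, 2011 or 2012 or without NT male 6112, and 3 without NT female 2013 or NT male 3111. All adjusted p-values are Benjamini-Hochberg values over 12107 genes from the quasi-likelihood test of edgeR, and differences are on the log2 scale, males minus females or LB minus NT, with the standard error (SE).

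Olig2, a factor needed for the lineage to form, was 19.9, 18.8, 20.9, 17.6 and 18.8 CPM in the 5 NT females. In the 7 NT males it ranged from 28.6 to 73.4 CPM (median 34.4). Every NT male lay above every NT female, with NT male 6112 far above the rest. The difference was 1.15 ± 0.271 (SE; adjusted p = 0.0124).

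Olig1, its neighbour in the genome and partner in the lineage, measured 46.7, 49.3, 61, 60.1 and 63.5 CPM in NT females and ranged from 79.2 to 171 CPM (median 101.2) in NT males. The groups again did not overlap, and the difference was 1.01 ± 0.291 (SE; adjusted p = 0.0242). Sox10, which drives myelin genes, was 36.0, 30.5, 35.7, 44.0 and 36.7 CPM in NT females and ranged from 47.5 to 127 CPM (median 58.0) in NT males. These groups were also separate, with a difference of 0.98 ± 0.337 (SE; adjusted p = 0.0483). Groups without overlap in this direction were found for 3.62% of all tested genes. Nkx2-2 measured 7.08, 5.88, 7.29, 7.23 and 6.37 CPM in NT females and ranged from 5.79 to 16.97 CPM (median 7.64) in NT males. The Nkx2-2 ranges overlapped, as NT males 3113 and 6111 lay within or below the females, and its difference of 0.53 ± 0.276 (SE) had an adjusted p of 0.183.

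Of the precursor genes, Cspg4 measured 15.3, 15.4, 12.6, 15.99 and 16.3 CPM in NT females and ranged from 13.5 to 32.0 CPM (median 24.3) in NT males. Of the 7 males 6 exceeded all females and NT male 3112 did not, and the difference was 0.64 ± 0.214 (SE; adjusted p = 0.0428). Pdgfra was 32.2, 28.6, 29.6, 27.2 and 29.4 CPM in NT females, the tightest of any group, and ranged from 26.2 to 73.7 CPM (median 35.2) in NT males. Of the males 5 lay above all females and 2, animals 3111 and 4111, below all of them. The Pdgfra difference was 0.49 ± 0.225 (SE), with a 95% interval of 0.05 to 0.93 and an adjusted p of 0.124.

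The genes of later steps differed from each other. Bcas1 was 238, 293, 391, 328 and 344 CPM in NT females and ranged from 366 to 1466 CPM (median 639) in NT males. All but NT male 3113 exceeded every female, and the difference of 1.44 ± 0.320 (SE; adjusted p = 0.0113) was the largest among the 8 members. Gpr17, the gene with the fewest counts, was 4.93, 2.33, 3.94, 4.13 and 3.22 CPM in NT females and ranged from 2.69 to 10.1 CPM (median 3.94) in NT males. The Gpr17 groups overlapped, with nearly the same median, and the difference of 0.40 ± 0.435 (SE) did not pass (adjusted p = 0.545).

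**Figure D1:**
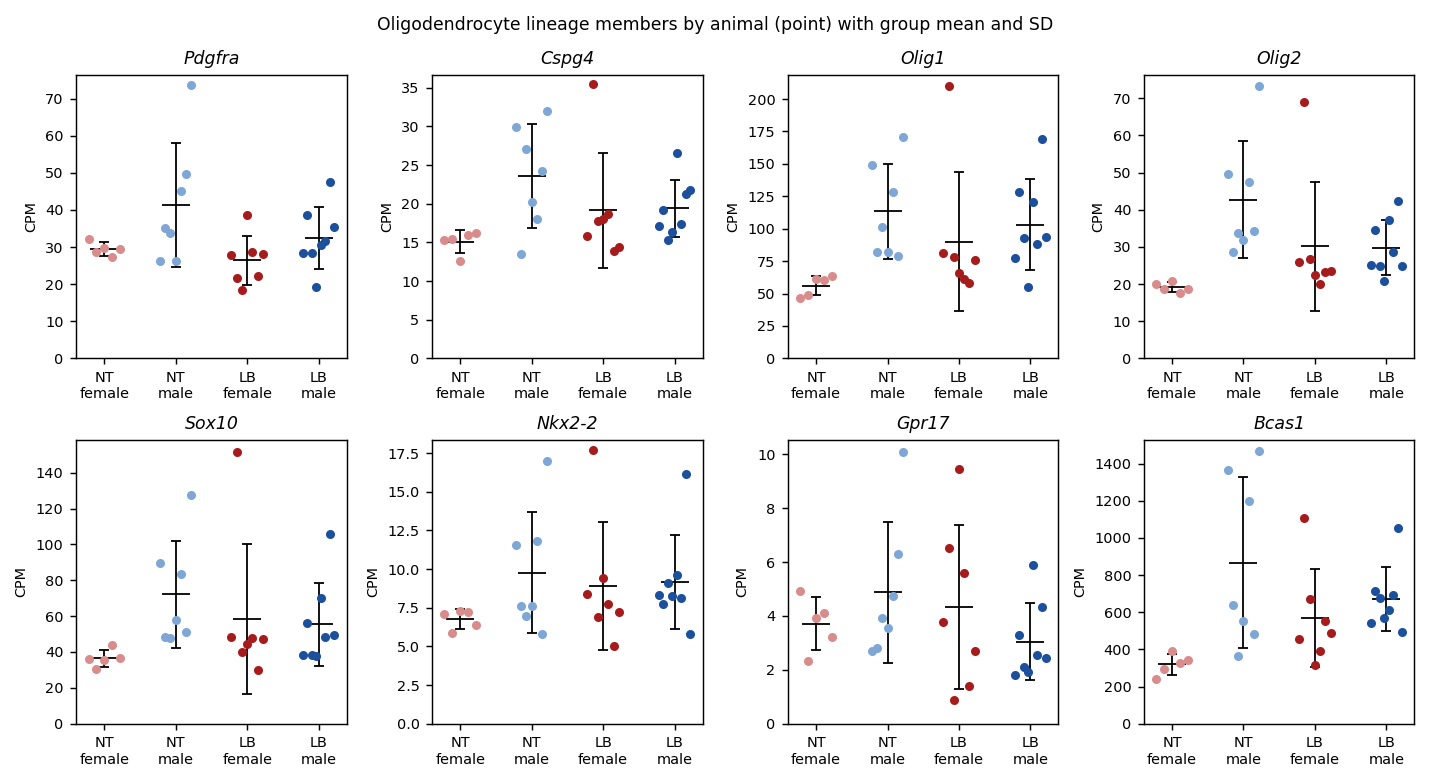
CPM (linear axis from 0) of each member in every animal, by group, with the group mean and SD as a bar and whiskers. NT females have the smallest SD for each member, 1 LB female (animal 5022) lies far above the other LB females for Cspg4, Olig1, Olig2, Sox10 and Nkx2-2 but not for Pdgfra, and 1 NT male (animal 6112) lies highest for Pdgfra, Olig2, Gpr17 and Bcas1.

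Myelin genes, the products of mature oligodendrocytes, were uniformly higher. All 18 of 18 listed myelin genes were higher in NT males, with a median difference of 1.32 on the log2 scale, against a median of 0.03 over all tested genes. Mbp, which encodes myelin basic protein, was higher by 1.80 ± 0.430 (SE; adjusted p = 0.0131), and Mog, a surface glycoprotein of mature myelin, by 1.34. The median differences of the member groups were 0.57 for the precursor genes Pdgfra and Cspg4, 1.00 for the 4 transcription factors and 0.92 for Gpr17 and Bcas1.

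Other precursor genes were mixed. Of 12 tested, 4 were higher in NT males and 1 was lower, with a median of 0.29. Vcan, Ptprz1 and Tnr, which encode extracellular matrix proteins and a phosphatase of the precursor surface, differed by -0.08, 0.04 and -0.47 and did not pass. Among those that passed, named after their values were seen, were Matn4 (1.09), C1ql1 (1.09) and Sox5 (0.73), and, lower in males, Lnx1 (-0.42). Several of these genes are also expressed by neurons or astrocytes.

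Among the other regulators of the lineage, 4 of 8 were higher in NT males and 1 was lower, with a median of 0.62. Nkx6-2, a homeobox gene of myelinating cells, was higher by 1.502 ± 0.433 (SE; adjusted p = 0.0243) and Sox8 by 0.72 ± 0.248 (SE; adjusted p = 0.0484). Myrf, the factor that switches on myelin genes, differed by 0.93 ± 0.359 (SE) but missed the threshold (adjusted p = 0.0751). Of 8 other genes of committed precursors, 1 was higher and 1 lower, and Enpp6 (0.75, adjusted p = 0.243) and Tcf7l2 (0.36, adjusted p = 0.604) did not pass. Of 16 genes of signals to the lineage 3 were higher and 0 lower, including Pdgfa, the ligand of the PDGFRA receptor. Mean Pdgfa was 30.2 CPM for NT females against 52.9 CPM for NT males, each male above all females (0.81 ± 0.206, SE; adjusted p = 0.016). Pdgfrb, the sister receptor of pericytes, differed by 0.18 (adjusted p = 0.478), and Mki67, a gene of dividing cells, by 0.80 (adjusted p = 0.17) at mean levels of 0.844 and 1.47 CPM.

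Markers of other cells differed in the same comparison. Of 6 granule neuron genes 3 were lower in NT males, among them Gabra6 (-1.04), and their summed level ran from 5934 to 6294 CPM in NT females and from 1750 to 5300 CPM in NT males, without overlap. Of 5 genes of deep nuclear neurons and large axons 3 were higher, with sums of 626 to 754 CPM and 644 to 4500 CPM, and Slc17a6, a glutamate transporter of such neurons, had a mean of 2.58 CPM for NT females against 70.2 CPM for NT males, the latter set largely by animal 6112. Of 6 tested genes of fibroblasts and meninges 2 were higher, Dcn among them (0.81), with sums of 184 to 274 CPM and 283 to 767 CPM. The fibroblast markers Col1a2 and Ogn were at 0 in 16 and 26 of the 27 animals.

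Microglial genes were higher for 2 of 5, with sums of 57.1 to 69.0 CPM and 67.4 to 162 CPM, and Schwann cell genes for 2 of 4, with sums of 3.20 to 3.92 CPM and 3.37 to 45.7 CPM. The Schwann cell gene Egr2 was at 0 in 8 of the 27 animals. None of 5 mural genes passed. When the granule score entered the model as a covariate, the sex difference in NT was 0.26 for Olig2, 0.09 for Olig1 and -0.11 for Cspg4, and 0 of 8 members passed. With the fibroblast score the Olig2 difference was 1.14 and that of Pdgfra 0.19, again with 0 of 8 passing. Animals whose titles shared all but the last digit were always of 1 sex and treatment (10 such sets, nested in the groups). Of the NT females, 1011 and 1013 formed 1 set and 2011, 2012 and 2013 another. With the set as a random block 0 of 8 passed. The share of all tested genes passing under the covariate and block models is not given here. These counts of 0 therefore cannot be read as particular to the members.

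In LB rats no member passed between the sexes. By edgeR 0 of 8 passed, against 0.248% of all tested genes, and 0 of 8 had an unadjusted p under 0.05, against 17%. DESeq2 and limma-voom also called 0. Olig2 ranged from 19.99 to 69.0 CPM (median 23.5) in LB females and from 20.9 to 42.3 CPM (median 26.9) in LB males. These ranges overlapped almost wholly, with LB female 5022 at the top, and the difference was -0.02 ± 0.231 (SE). Pdgfra ranged from 18.4 to 38.5 CPM (median 27.9) in LB females and from 19.1 to 47.5 CPM (median 31.2) in LB males, with a difference of 0.30 ± 0.197 (SE; adjusted p = 0.453) and 2 males above all females. Without animal 5022 the Olig1 difference was 0.56 and that of Sox10 0.37, and neither passed.

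Over both treatments, 4 of 8 members were higher in males, against 16.9% of all tested genes in that direction and 29.3% in either. They were Bcas1 (0.84 ± 0.208, SE; adjusted p = 0.00533), Olig1 (0.60 ± 0.191, SE; adjusted p = 0.021), Olig2 (0.57 ± 0.177, SE; adjusted p = 0.0188) and Pdgfra (0.39 ± 0.150, SE; adjusted p = 0.0475). Pdgfra passed in only 7 of the 27 fits that left out 1 animal each, and with the fibroblast score as a covariate its difference was -0.008. With the title set as a random block the count was 1, and with the granule, fibroblast or myelin score as a covariate it was 0. The share of all tested genes passing in those fits is not given here. Without LB female 5022 the count was 6, since Cspg4, Sox10 and Nkx2-2 then passed and Pdgfra did not.

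Limited bedding was compared with normal rearing within each sex. In females, 0 of 8 members passed, against 0.00826% of all tested genes, and DESeq2 and limma-voom called 0. The count with an unadjusted p under 0.05 was 3 (Olig1, Olig2 and Bcas1), against 7.94% of all tested genes. Olig1 ranged from 58.5 to 210 CPM (median 75.9) in LB females, of which 5 exceeded all 5 NT females, and the difference was 0.68 ± 0.288 (SE; adjusted p = 0.576). Bcas1 ranged from 318 to 1107 CPM (median 488) in LB females, 5 of them above all NT females, and the difference was 0.83 ± 0.312 (SE; adjusted p = 0.576). The lineage genes Olig2 (0.65) and Sox10 (0.67) had similar fitted differences, whereas that of Pdgfra was -0.15 ± 0.222 (SE), with 3 LB females below all NT females and 1 above.

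A single animal weighed on these values. Without LB female 5022 the LB difference in females was 0.32 for Olig1, 0.30 for Olig2, 0.23 for Sox10, 0.12 for Cspg4 and 0.59 for Bcas1. For Pdgfra, in which 5022 was among the lower LB females, the difference lay between -0.263 and -0.08 over all fits that left out 1 animal each. These comparisons and the sex difference in NT share the same 5 NT females, in which Cspg4, Olig1, Olig2, Sox10, Nkx2-2 and Bcas1 had their lowest group mean.

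In males, 0 of 8 members passed, against 0% of all tested genes, and DESeq2 and limma-voom called 0. Olig2 alone had an unadjusted p under 0.05, against 10% of all tested genes, with 20.9 to 42.3 CPM in LB males and 28.6 to 73.4 CPM in NT males. Of the LB males 4 lay below all NT males, and the difference was -0.52 ± 0.231 (SE; adjusted p = 0.493). Gpr17 had the most negative fitted value (-0.68 ± 0.383, SE; adjusted p = 0.508), with 5 LB males below all NT males. All 8 fitted differences were below 0, with a median of -0.36 against -0.02 over all tested genes. Here too the 8 signs are not independent. In fits that left out 1 animal each, Nkx2-2 reached 0.097, Olig1 -0.008, Pdgfra -0.149 and Olig2 -0.336. Only Nkx2-2 changed sign. Over both sexes 0 of 8 passed, against 0.00826% of all tested genes, and 0 of 8 had an unadjusted p under 0.05, against 14.9%.

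The interaction asked whether the sex difference itself changed with limited bedding. It was below 0 for all 8 members, with a median of -0.86 against -0.03 over all tested genes. The members vary together, so these 8 signs are not independent. By edgeR 0 of 8 passed (0% of all tested genes), and DESeq2 and limma-voom called 0. For 5 members (Cspg4, Olig1, Olig2, Sox10 and Bcas1) the unadjusted p was under 0.05, against 4.71% of all tested genes. For Olig2 the interaction was -1.17 ± 0.353 (SE; unadjusted p = 0.00263, adjusted p = 0.9998) and for Bcas1 -1.21 ± 0.411 (SE; unadjusted p = 0.0067, adjusted p = 0.9998). For Pdgfra it was -0.20 ± 0.297 (SE), an interval of -0.78 to 0.38. Without LB female 5022 the Olig2 value was -0.82. In fits that left out 1 animal each, the Pdgfra value reached 0.003.

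**Figure D2:**
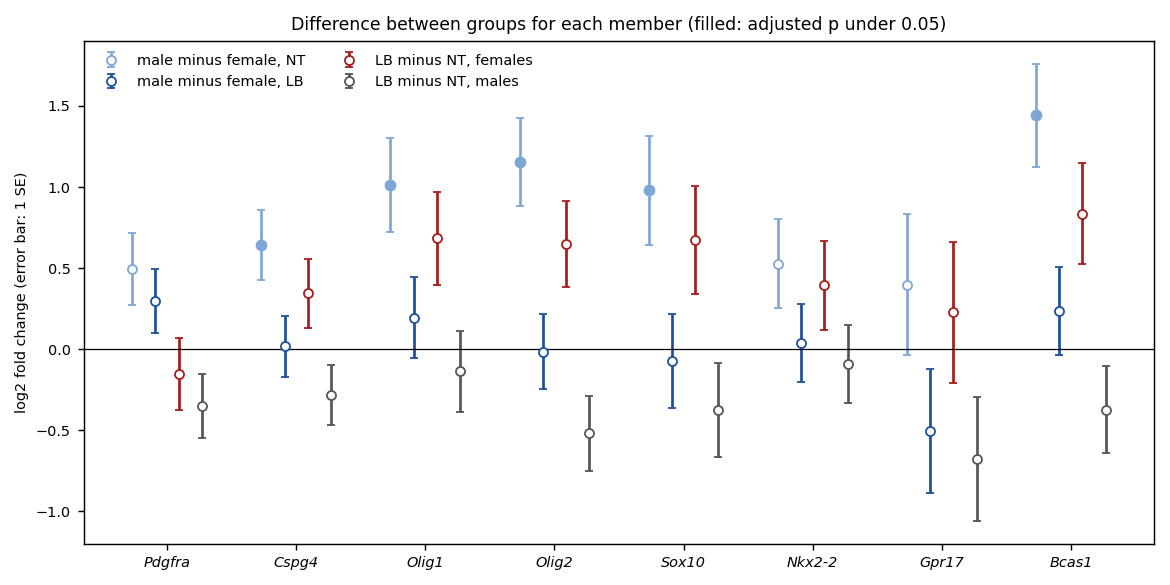
Log2 fold change of each member with 1 SE, for males minus females in NT and in LB and for LB minus NT in females and in males, with filled points where the adjusted p was under 0.05. The filled points are the 5 members that passed between NT males and NT females (Cspg4, Olig1, Olig2, Sox10 and Bcas1), and the value of Pdgfra for LB minus NT in females is the only one of that comparison below 0.

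By order of group means, Pdgfra was lowest in LB females (26.5 ± 6.62 CPM, SD, n = 7), then NT females (29.4 ± 1.83, n = 5), LB males (32.5 ± 8.38, n = 8) and NT males (41.4 ± 16.7, n = 7). For Olig2 the order was NT females (19.2 ± 1.26 CPM), LB males (29.8 ± 7.41), LB females (30.1 ± 17.3) and NT males (42.8 ± 15.7). Neighbouring means of Pdgfra lay within 1 SD of the more variable group, while for Olig2 the gap between NT females and LB males was wider than the SD of either. Cspg4 had the order NT females (15.1 ± 1.46 CPM), LB females (19.2 ± 7.45), LB males (19.4 ± 3.72) and NT males (23.6 ± 6.69).

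To compare precursor and lineage genes within each animal, the log2 ratio of Pdgfra or Cspg4 to each of the 4 transcription factors was taken and compared between groups by two-sided exact permutation tests. Of 32 ratio tests 0 passed after Benjamini-Hochberg adjustment and 2 had a raw p under 0.05. The log2 ratio of Pdgfra to Olig2 was 0.60 ± 0.069 (SD, n = 5) in NT females, between 0.49 and 0.68, and -0.06 ± 0.453 (SD, n = 7) in NT males, between -0.90 and 0.53. Of the 7 NT males 6 lay below all NT females, and the difference of -0.67 had an exact permutation p of 0.00758 (adjusted p = 0.242). The ratio of Cspg4 to Olig2 differed by -0.49 between the same groups, with 4 males below all females (exact permutation p = 0.0341, adjusted p = 0.323). Of the 8 ratios 7 were lower on average in NT males. Ratios to Nkx2-2, which acts around the onset of differentiation but is counted with the 4 factors, differed by -0.02 (Pdgfra) and 0.16 (Cspg4).

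Between LB and NT females all 8 ratios were lower in LB on average, with a median difference of -0.37, and 0 had a raw p under 0.05. The log2 ratio of Pdgfra to Olig1 was -0.91 ± 0.256 (SD, n = 5) in NT females and -1.64 ± 0.816 (SD, n = 7) in LB females, where 5 of 7 lay below all NT females (exact permutation p = 0.0669, adjusted p = 0.323). The lowest LB female value, -3.25, was that of animal 5022, which weighs on this mean and SD. Between the sexes in LB the median ratio difference was 0.02, and between LB and NT males -0.01.

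Over the 27 animals the lineage factors varied together. Pearson's r of log2 CPM between Olig1 and Olig2 was 0.928 (Spearman's rho 0.913), between Olig2 and Sox10 0.919 (rho 0.863) and between Sox10 and Nkx2-2 0.88 (rho 0.616), each with a permutation p of 1e-05 for r, the smallest that the permutations can give. The median r over the 6 pairs of lineage factors was 0.898, and it was 0.896 after each group's mean had been removed. In all, 84 relations were tested, and adjusted p-values cover these.

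Cspg4 also varied with the lineage factors. Its r was 0.807 with Olig2 (rho 0.697, adjusted permutation p = 4.67e-05), 0.795 with Sox10 (rho 0.777), 0.763 with Olig1 (rho 0.698) and 0.587 with Nkx2-2 (rho 0.391). Without the 2 animals farthest from the median of Cspg4 (6112 and 5022) r with Olig2 was 0.677, and with group means removed 0.729.

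Pdgfra had lower coefficients. With Olig2 its r was 0.428 (rho 0.283, adjusted permutation p = 0.0437 for r and 0.214 for rho), with Sox10 0.418 (rho 0.335, adjusted permutation p = 0.0499), with Olig1 0.383 (rho 0.342) and with Nkx2-2 0.333 (rho 0.11). Without NT males 6111 and 6112, the pair farthest from the median of Pdgfra, r was 0.171 with Olig2, 0.246 with Sox10, 0.279 with Olig1 and 0.223 with Nkx2-2. Those values kept LB female 5022, which ranked 25 for Pdgfra and 2 for Olig2 and so lowers r between them. Coefficients of Pdgfra without 5022 are not given here, so how far its lower values rest on single animals is not settled. The median r of precursor to lineage pairs, 0.508 over all animals, ran from 0.372 (without NT male 6112) to 0.641 with 1 animal left out. With group means removed, r was 0.289 with Olig2, 0.335 with Sox10, 0.286 with Olig1 and 0.302 with Nkx2-2, and with the means of title sets removed it was 0.392, 0.465, 0.485 and 0.489 in the same order. The median r of Pdgfra with the 4 factors was 0.4, that of Cspg4 0.779, and the difference between these was not tested.

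Between the precursor genes Pdgfra and Cspg4 r was 0.295 (rho 0.247, adjusted permutation p = 0.179), and it was 0.007 without NT males 6111 and 6112. Among the 12106 other tested genes, Cspg4 ranked 3175 by its r with Pdgfra, and Olig2 ranked 1858. The member closest to Pdgfra was Gpr17, with r = 0.639 (rho 0.516, adjusted permutation p = 0.00116), 0.495 without 6111 and 6112, 0.68 with group means removed and 0.721 with the means of title sets removed.

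Gpr17 and Bcas1, the pair of later genes, were unlike each other, with r = 0.048 (rho -0.057, adjusted permutation p = 0.854). Bcas1 followed Olig2 (r = 0.856, rho 0.817) and Olig1 (r = 0.854, rho 0.78), and its r with Pdgfra was 0.248 (rho 0.046). Gpr17 had r = 0.544 with Sox10 (rho 0.509, adjusted permutation p = 0.00702) and 0.321 with Olig1 (rho 0.289, adjusted permutation p = 0.144). Without animals 6112 and 5022 the Sox10 and Gpr17 value was 0.368. Gpr17 rests on 12 to 182 counts per animal, so its coefficients carry more counting error than the others.

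**Figure D3:**
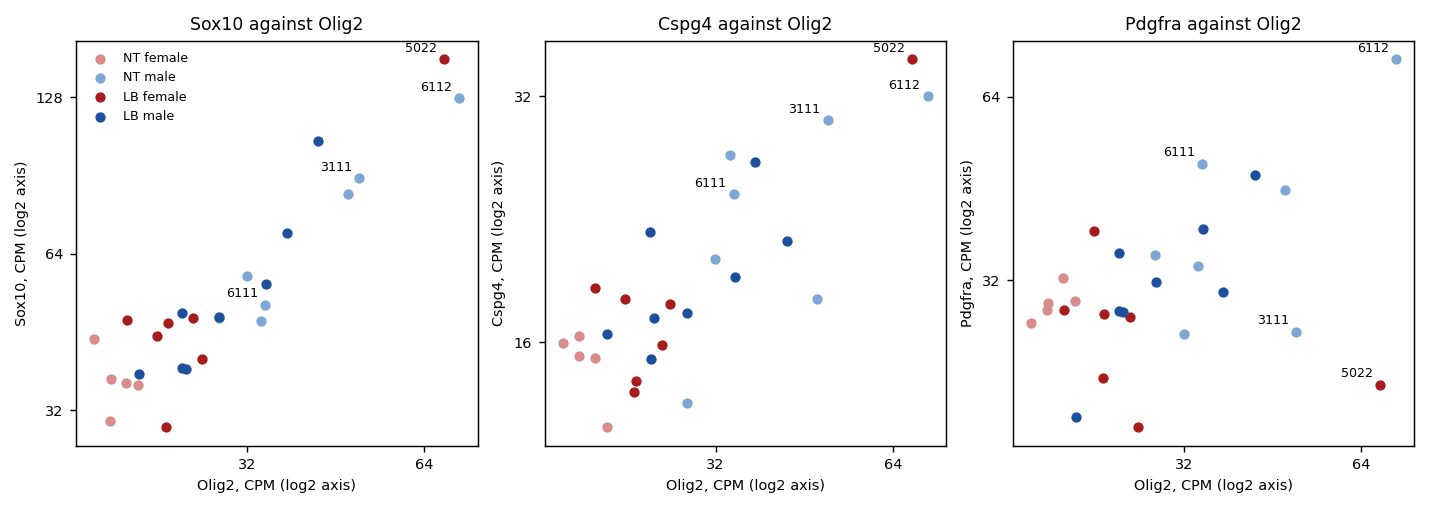
CPM on log2 axes of Sox10, Cspg4 and Pdgfra (y) against Olig2 (x), 1 point per animal, coloured by group, with 4 animals numbered. Sox10 and Cspg4 are higher where Olig2 is higher, r = 0.919 and 0.807, while for Pdgfra (r = 0.428) LB female 5022 lies at the lower right with 21.6 CPM of Pdgfra and 69.0 CPM of Olig2, and NT male 6112 at the upper right.

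The members were also compared with marker scores, each the mean of its genes' centred log2 CPM. With the myelin score, r was 0.934 for Bcas1 (rho 0.895), 0.863 for Olig1 (rho 0.857), 0.854 for Sox10 (rho 0.857), 0.844 for Olig2 (rho 0.838) and 0.779 for Nkx2-2 (rho 0.676), each with an adjusted permutation p of 4.67e-05. It was 0.547 for Cspg4 (rho 0.491), 0.427 for Pdgfra (rho 0.195, adjusted permutation p = 0.0437) and 0.253 for Gpr17 (rho 0.176, adjusted permutation p = 0.259). The order with the granule score was different. There r was -0.82 for Olig2 (rho -0.875), -0.794 for Cspg4 (rho -0.74), -0.773 for Olig1 (rho -0.837), -0.661 for Sox10 (rho -0.737), -0.633 for Bcas1 (rho -0.683), -0.505 for Pdgfra (rho -0.297), -0.434 for Nkx2-2 (rho -0.314) and -0.274 for Gpr17 (rho -0.165). Without 6111 and 6112 the Pdgfra value was -0.194.

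Scores of other cells were related to several members. With the microglia score r was 0.834 for Olig1 (rho 0.854), 0.794 for Olig2 (rho 0.778), 0.781 for Sox10 (rho 0.872), 0.739 for Cspg4 (rho 0.703), 0.697 for Bcas1 (rho 0.614), 0.663 for Pdgfra (rho 0.512), 0.585 for Nkx2-2 (rho 0.504) and 0.433 for Gpr17 (rho 0.407). With the deep nucleus score the 8 values lay between 0.391 (Gpr17) and 0.646 (Olig2), with 0.611 for Pdgfra (rho 0.571), which was 0.303 without 6111 and 6112. The r of Pdgfra was 0.566 with the astrocyte score (rho 0.482) and 0.534 with the fibroblast and meninges score (rho 0.607, adjusted permutation p = 0.0079), the last staying at 0.524 without 6111 and 6112 and falling to 0.375 with group means removed. Over the other 7 members r lay between -0.197 (Cspg4) and 0.372 (Gpr17) with the astrocyte score and between 0.039 (Gpr17) and 0.322 (Bcas1) with the fibroblast and meninges score. For Cspg4 r was 0.18 with the fibroblast score (rho 0.181) and 0.346 with the mural score (rho 0.306, adjusted permutation p = 0.116). The part of these cells in the member values was not tested.

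**Figure D4:**
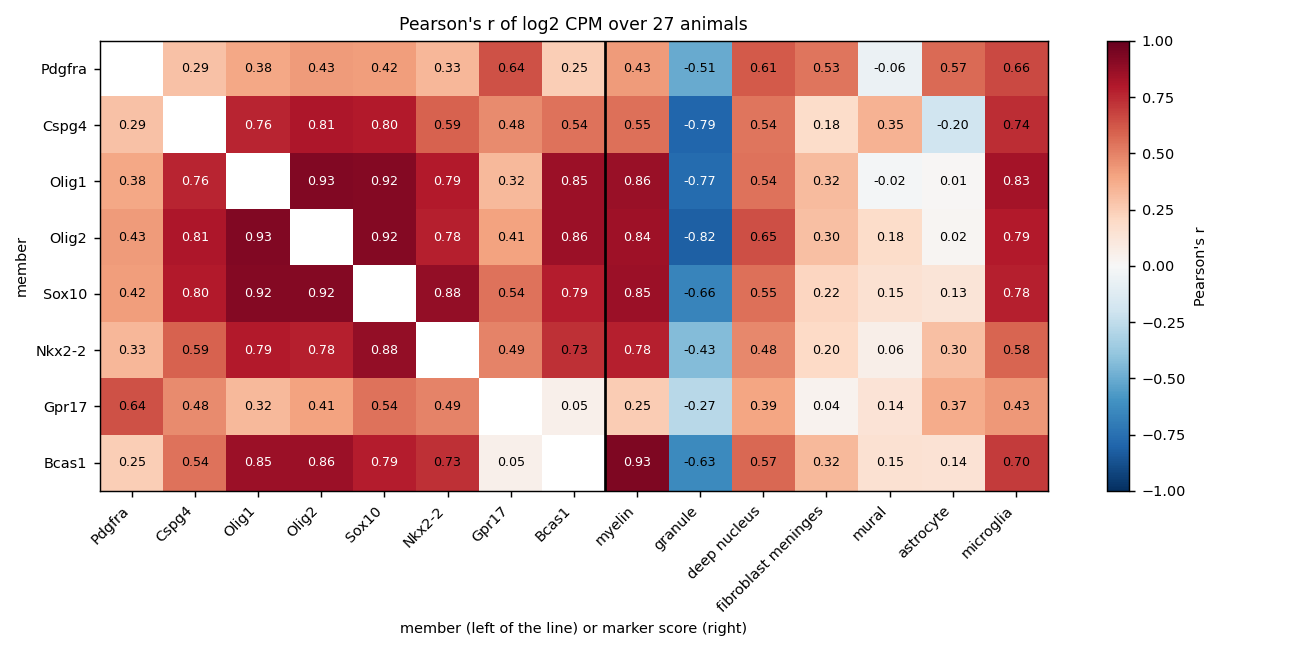
Pearson's r of log2 CPM over 27 animals between members (left of the line) and between members and marker scores (right), on a colour scale from -1 to 1. Olig1, Olig2, Sox10, Nkx2-2, Bcas1 and the myelin score form a block with r of 0.73 or more among the genes, and the highest value of Pdgfra with another member is 0.64, with Gpr17.

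The genes most like each member were ranked by Pearson's r over the 27 animals. For Sox10 they were Mag (0.972), Myrf (0.96) and Gsn (0.957), for Bcas1 Mbp (0.969), Mobp (0.957) and Plekhb1 (0.953), for Olig1 Carhsp1 (0.963), Pllp (0.962) and Gamt (0.962), and for Olig2 Fzd10 (0.936), Wipi1 and Olig1 (0.928). Mag, Mbp and Mobp encode myelin proteins, and Pllp encodes plasmolipin, also a myelin protein. For Nkx2-2 they were Slc6a9 (0.933), Csf1 and Myo1d.

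The highest ranked were Nnt (0.889), Lrp4 (0.854) and Gnb4 (0.847) for Pdgfra, Ramp2 (0.902), Smim1 and Pnkd for Cspg4, and Gas2l1 (0.9) and Clip2 (0.874) for Gpr17. Of the 18 myelin genes, 10 were among the 100 genes most like Bcas1, 9 for Olig1, 8 for Olig2 and for Sox10, 7 for Nkx2-2 and 0 for Pdgfra, Cspg4 and Gpr17. These ranks describe likeness over animals and carry no test.

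Single animals showed how the genes could part. LB female 5022 had the highest level of all 27 animals for Cspg4 (35.5 CPM), Olig1 (210 CPM), Sox10 (152 CPM) and Nkx2-2 (17.7 CPM) and the second highest for Olig2, yet ranked 25 for Pdgfra (21.6 CPM). NT male 6112 ranked 1 or 2 for every member, Pdgfra included. NT male 3111 ranked 3 for Cspg4 and for Olig2 and 2 for Bcas1, but 22 for Pdgfra. NT male 6111 ranked 2 for Pdgfra (49.7 CPM), 4 for Gpr17, 6 for Cspg4, 8 for Olig2 and 9 for Sox10, but 15 for Olig1, 18 for Bcas1 and 25 for Nkx2-2 (5.79 CPM).

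Other markers in these animals were also extreme. Animal 5022 had the lowest Gabra6 of all (193 CPM), and its level of LOC100911498, a gene with 589 to 1081 CPM in 10 of the other 11 females, was 138 CPM. LB female 8023 had 4.22 CPM of that gene and LB male 123 had 7.67 CPM, against at most 0.370 CPM in the other males. Animal 6112 had 131 CPM of Slc5a7, a choline transporter, where every other animal had at most 2.33 CPM, and the highest Slc17a6 (380 CPM). With 5022 and 6112 both left out, 5 of 8 members passed between NT males and NT females, against 2 without 6112 alone. Animal 5022 is in neither of those groups but enters the model shared by all groups.

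As a summary of each animal without a test, the mean centred log2 level of the precursor genes minus that of the 4 lineage factors was 0.30 ± 0.149 (SD) in NT females, between 0.10 and 0.46. It was -0.04 ± 0.380 in NT males, -0.11 ± 0.471 in LB females and -0.05 ± 0.232 in LB males. The lowest value, -1.09, was that of LB female 5022.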

How the data were processed

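Messenger RNA libraries (KAPA kit) had been made from interpositus punches of 27 rats, after the study had left out 3 samples of low RNA integrity. Per the labels and file headers, the authors aligned reads to rn6 with STAR 2.5.2b and counted them on genes with featureCounts (Subread 1.5.1). They deposited raw counts, without normalization, in 1 table. The annotation release, the strand setting and the treatment of reads with several positions are not given in the sources used here. Groups came from the sample labels.

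Genes were filtered by filterByExpr (minimum count 10, minimum total 15) and counts were scaled by TMM. A quasi-likelihood model with 4 groups was fitted to all animals in edgeR 4.0.16 (R 4.3.3), with Benjamini-Hochberg adjustment over 12107 genes and a threshold of 0.05. CPM values were scaled by TMM library sizes, and correlations and ratios used log2(CPM + 0.5) with exact tests or 100000 permutations (SciPy 1.17.1). Floors of 3 counts cover counting error only. On simulated data for the NT sex comparison (12107 genes, 200 changed by a log2 change of 1), 60.5% were recovered and 6.92% of calls were false. Alternatives used DESeq2 1.42.0, limma 3.58.1 (voom, title sets as a random block), other scalings and filters, marker scores as covariates and each animal left out. Of 80 within-group pairs of animals, 0 had identical counts.

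The 8 members and all gene lists were chosen with earlier results of these data known. Genes named beside the members were those of the lists set for naming and the 3 most like each member. Values of some of these genes are not reported here. Promoter windows were taken from RefSeq (GRCr8) and were matched by symbol; those of Olig1, Sox10 and Bcas1 were not used here.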

Additional observations from a re-analysis of the deposited data

Results flagged for a closer look

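Member levels in which 1 animal stood far from the rest of its group were looked for in all 4 groups, by the gap to the nearest animal as a share of the group's range. Of 32 gene and group combinations 8 met Dixon's 95% limit, where chance flags about 1 in 20, or 5%, and members that vary together are not independent. LB female 5022 accounted for 5 of them. It was high in Cspg4 (35.5 CPM, nearest animal 18.6), Olig1 (210 CPM, nearest 81.0), Olig2 (69.0 CPM, nearest 26.8), Sox10 (152 CPM, nearest 48.2) and Nkx2-2 (17.7 CPM, nearest 9.40). LB male 9122 was high in Nkx2-2 (16.1 CPM, nearest 9.61) and Bcas1 (1051 CPM, nearest 714). NT female 2011 was low in Cspg4 (12.6 CPM, nearest 15.3). Pdgfra and Gpr17 had no such animal in any group.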

How the results depend on the processing

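The 5 members called between NT males and NT females became 3 with limma-voom and 0 with title sets as a random block or with the granule, fibroblast or myelin score as a covariate; leaving out 1 animal gave 2 to 6. Over both treatments the 4 called became 1 with the block and 0 with each covariate, and leaving out 1 animal gave 3 to 6. Shares of all tested genes called under these alternatives are not given here, so the counts are not particular to the members. Counts of the other 5 comparisons and of the 32 ratio tests were 0 under every alternative run. Without the 2 animals farthest from the median, the median r was 0.292 for precursor to lineage pairs, 0.818 within lineage genes and 0.431 over all pairs; leaving out 1 animal gave 0.372 to 0.641, 0.868 to 0.909 and 0.522 to 0.678. Reversed values were Pdgfra over both treatments (-0.008, fibroblast covariate), Cspg4 in NT (-0.11, granule covariate) and Sox10 in NT (-0.079, myelin covariate); the cause was not tested. Of 697 alternative values of 56 member differences, 651 kept their side of the threshold and were not reversed (48 of them changed sign below it), 39 lost it and 4 gained it. The myelin score holds genes that vary with the members. The pair 5022 and 6112 and the pair 8023 and 123 were left out as alternatives chosen after seeing the data. No paired analysis was possible because replicate numbers here only name animals. At 12 to 182 counts, Gpr17 differences have wide intervals.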
